A study of Mus musculus with 6 samples.

Results

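The inducible caspases and death mediators described here are 8 genes (Casp1, Casp4, Casp8, Casp12, Mlkl, Ripk3, Xaf1 and Gsdmd), chosen by name. Each had 1 transcript cluster of its own on the array, a transcript cluster being a group of probes read together, and no cluster that it shared with another gene, so all 8 were among the 19938 genes compared. High-binding cells (HBC) and low-binding cells (LBC) are immortalized stromal vascular preadipocytes that came from inguinal white fat of male mice of strain 129SVE, sorted 20 times on how much FcsFNDC4, an Fc-tagged form of the secreted part of FNDC4, they bound. RNA of HBC (3 arrays) and LBC (3 arrays) at passage 20 was read on Affymetrix mouse gene arrays. Both groups were expanded in the same medium after the last sort, and no treatment is given for either besides the binding assay used to sort them. The arrays of a group are technical replicates of 1 sorted population, so p-values measure the spread between arrays and not that between independent sorts. The titles, descriptions and cell phenotypes gave these groups, but in LBC replicates 2 and 3 the source name was that of HBC.

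Caspases are proteases that cut other proteins after aspartate. Casp8 starts apoptosis downstream of death receptors and also holds back necroptosis, a lytic death in which the kinase Ripk3 phosphorylates Mlkl, which then breaks the plasma membrane. Casp1 and Casp4 cut Gsdmd, whose freed fragment forms the pores of pyroptosis, and Casp12 is their neighbour in the same gene cluster. Xaf1 binds XIAP, an inhibitor of caspases. Several of these genes are known to be induced by interferons, and the caspases, Ripk3, Mlkl and Gsdmd encode proteins that kill only once activated, which RNA levels do not show.

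Promoter stretches of 3 members are printed to show the longest run of letters that Xaf1 and Casp8 share, beside Mlkl, which lacks it. RefSeq's promoter table (GRCm38.p6, 250 bases before to 50 after a start) held 7 of the 8 members; Gsdmd was not among them. The motifs searched on both strands were the core of the interferon-stimulated response element (2 GAAA units with 2 bases between them) and a loose kappaB site (GGG and CC with 5 bases between them). A pair of GAAA units with 1 base between them was added after the promoters had been read, and its matches overlap with none of the others here. The capitals mark this pair, and each stretch runs 5′ to 3′ on the gene's strand over 150 bases, from 120 before the start to 30 after it. Xaf1 is shown from chr11:72301509-72301658 (+ strand), Casp8 from chr1:58802382-58802531 (+ strand) and Mlkl, which has no match to the pair, from chr8:111338176-111338325 (- strand).
Xaf1: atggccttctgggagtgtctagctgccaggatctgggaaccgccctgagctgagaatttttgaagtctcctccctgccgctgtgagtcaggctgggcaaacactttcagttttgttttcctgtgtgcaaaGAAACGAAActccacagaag
Casp8: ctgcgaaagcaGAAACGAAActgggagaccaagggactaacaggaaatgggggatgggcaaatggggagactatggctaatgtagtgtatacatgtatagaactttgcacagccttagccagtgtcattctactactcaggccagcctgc
Mlkl: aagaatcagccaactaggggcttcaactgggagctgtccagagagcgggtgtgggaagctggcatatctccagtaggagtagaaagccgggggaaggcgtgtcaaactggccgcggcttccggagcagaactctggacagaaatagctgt

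The pair lay at bases 11 to 19 after the start in Xaf1 and at bases -109 to -101 in Casp8, and was found in 3.17% of all 32851 promoters of the table. The longest stretch of letters common to the Xaf1 and Casp8 promoters was the 12 bases agaaacgaaact around it, which 6 of the 32851 promoters held on either strand. Those 6 belong to Casp8, Ddx58, Fyco1, Helz2, Oas3 and Xaf1. The response element core was in none of the 7 members' promoters and in 3.44% of all promoters. The loose kappaB site matched the promoters of Casp1, Casp4 and Xaf1 but also 50.8% of all promoters. A match is a description of letters and no evidence of binding.

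Of the 8 members, Xaf1 rose strongly in HBC and was the 1 gene past both the test and a fold of 1.5, while Mlkl, Ripk3, Casp4 and Casp12 had smaller differences in the same direction. Its intensity was 1369, 1522 and 1296 on the HBC arrays, against 239.7, 235 and 119 on the LBC arrays. The HBC arrays lay far above the LBC arrays, and LBC replicate 3 was well below the other LBC arrays. Mean intensity was 1396 ± 115 in HBC and 198 ± 68.2 in LBC (SD, n = 3 each), a ratio of 7.05. On the scale of log2(intensity + 16), on which the limma tests were made, HBC exceeded LBC by 2.78 (standard error, SE, 0.14, limma adjusted p = 6.5e-16), which ranked 35 among the rises of the 19938 genes. Genes count as called where the adjusted p was under 0.05 and the fold exceeded 1.5, which is 0.58 on the log2 scale. By this rule 3.67% of all genes were called, 2.54% higher and 1.13% lower, and 1 of the 8 members was called, higher. Without LBC replicate 3 the log2 fold change of Xaf1 was 2.48, and it was called in all 22 alternatives run. Its nearest measured neighbours on chromosome 11, Slc13a5 and Fbxo39, had log2 fold changes of -0.09 and 0.09 and were not called. In RNA of whole cultures, more cells with Xaf1 transcripts and more transcripts per cell cannot be told apart. As a reference for dim signal, taken with the values known, 1015 olfactory receptor genes, which preadipocytes are not known to use, ran from 13.8 to 84.4 in HBC and from 13.9 to 86.3 in LBC between their 10th and 90th percentiles. Xaf1 lay above this range on every array.

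**Figure D1:**
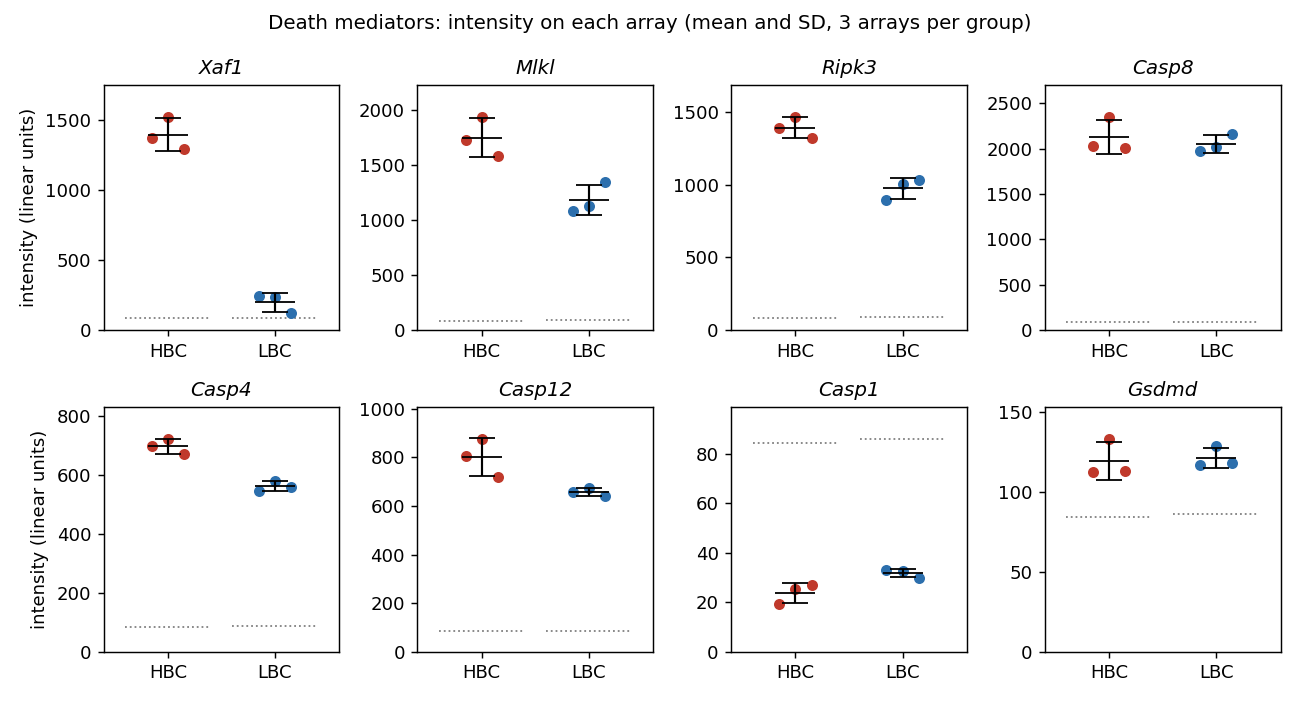
Intensity (linear units) of the 8 members on each array, with 3 HBC arrays in red, 3 LBC arrays in blue, and black bars for the mean and SD. Dotted lines mark the 90th percentile of olfactory receptor genes in each group (84.4 in HBC and 86.3 in LBC), above which Xaf1 reads in both groups and below which Casp1 reads in both.

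The 2 necroptosis genes Mlkl and Ripk3 were higher in HBC by about the same small amount, each just under the fold threshold. Mlkl, the membrane-breaking effector, read 1734, 1941 and 1583 in HBC, against 1082, 1127 and 1343 in LBC. Ripk3, the kinase that activates it, read 1393, 1467 and 1320.0 in HBC, against 895, 1005 and 1031 in LBC. The groups did not overlap for either gene, but LBC replicate 3, the highest LBC array for both, came near the lowest HBC array for Mlkl. The ratio of means was 1.48 for Mlkl (log2 fold change 0.56, SE 0.095, limma adjusted p = 4.8e-05). It was 1.43 for Ripk3 (log2 fold change 0.51, SE 0.087, limma adjusted p = 5.9e-05). Because of the fold threshold neither was called. Mlkl crossed it without HBC replicate 3 (log2 fold change 0.63) or without LBC replicate 3 (0.65), and after cyclic loess normalization (0.60) or median centring (0.63), whereas the per-gene test named in the study's methods gave it an adjusted p of 0.10. Ripk3 crossed it in none of these. Of the measured neighbours of Ripk3 on chromosome 14, Nfatc4 and Nynrin were called higher (log2 fold changes of 0.87 and 0.76), and Adcy4 on the other side was not called (-0.09).

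Casp8, the apoptotic initiator that restrains Ripk3, did not pass the test. It read 2029.5, 2349 and 2007 in HBC, against 1973, 2019 and 2161 in LBC, and the groups overlapped. Its log2 fold change was 0.05, with a 95% interval from -0.13 to 0.23 (limma adjusted p = 0.74), so that a change of 1.5-fold in either direction lies outside the interval. Xaf1 and Casp8, which share the 12 promoter letters printed above, thus had log2 fold changes of 2.78 and 0.05. Among the 4 other genes with these letters, Ddx58 (1.45), Helz2 (1.73) and Oas3 (3.27) were called higher, as were 2.54% of all genes. The letters were taken from the promoter of Xaf1, the member that rose most, and a link between them and these rises was not tested. Fyco1 (0.37, limma adjusted p = 0.0022) lay under the fold threshold and was not called. Cflar, the neighbour of Casp8 on chromosome 1 and an inhibitor of its activation, had a log2 fold change of -0.18 and was not called.

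The inflammatory caspases lie side by side on chromosome 9 in the order Casp1, Casp4, Casp12. Values were somewhat higher in HBC for Casp4 and Casp12 and lower for Casp1, and none of the 3 was called. Casp4, the sensor of cytosolic lipopolysaccharide, read 698, 724 and 671 in HBC, against 548, 581 and 559 in LBC. Casp12 read 806, 877 and 721 in HBC, against 658, 673 and 642 in LBC. In both genes every HBC array was above every LBC array, by a wide gap for Casp4 and a narrower one for Casp12, whose HBC arrays were more spread (SD 78.2, against 15.4 in LBC). Casp4 had a ratio of means of 1.24, or 0.30 on the log2 scale (SE 0.084, limma adjusted p = 0.0097), and Casp12 one of 1.22, or 0.27 on the log2 scale (SE 0.088, limma adjusted p = 0.027). Both were well under the fold threshold and not called. The limma adjusted p of Casp4 was 0.056 without HBC replicate 1 and 0.063 without HBC replicate 2. That of Casp12 was 0.11 without HBC replicate 1, 0.20 without HBC replicate 2 and 0.065 without LBC replicate 2. The genes flanking the cluster, Gria4 and Pdgfd, had log2 fold changes of -0.14 and -0.08 and were not called.

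Casp1, the protease that matures interleukin-1 beta, had dim signal in both groups. It read 19.3, 25.3 and 27.0 in HBC, against 33.1, 32.5 and 29.8 in LBC. All HBC arrays were below the LBC arrays, by a margin of a few units. Its log2 fold change was -0.27 (SE 0.089, limma adjusted p = 0.036) and it was not called. All 6 values lie inside the range of the olfactory receptor genes. The limma adjusted p was 0.34 without HBC replicate 1, 0.059 without HBC replicate 2, 0.073 without LBC replicate 1 and 0.12 without LBC replicate 2, and it was not under 0.05 in 12 of 20 alternatives.

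Gsdmd, the pore-forming substrate of Casp1 and Casp4, read 112, 133 and 113 in HBC, against 117, 128 and 118 in LBC. The groups overlapped fully, and all arrays lay a little above the 90th percentile of the olfactory receptor genes. Its log2 fold change was -0.02, with a 95% interval from -0.20 to 0.16 (limma adjusted p = 0.90), and its sign turned under quantile (0.044), cyclic loess (0.069) and median (0.052) scaling.

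**Figure D2:**
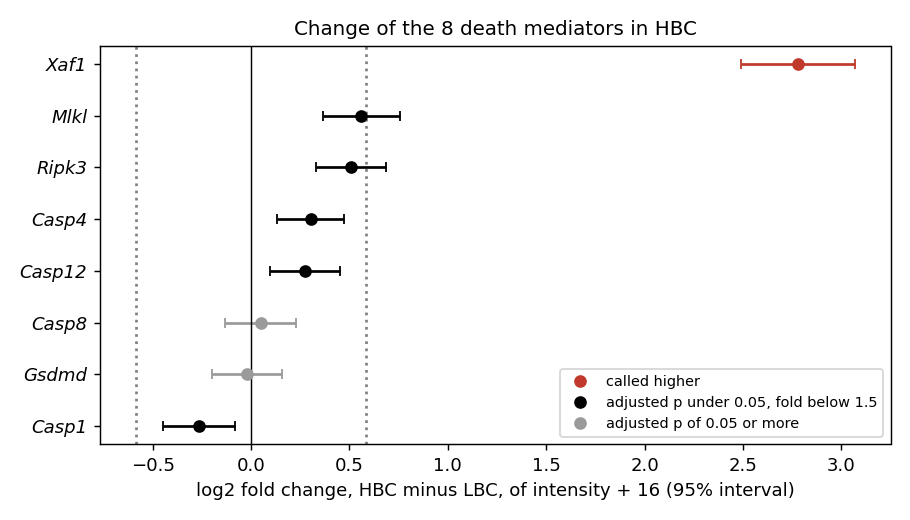
Difference of HBC minus LBC in log2(intensity + 16) for the 8 members, with 95% intervals from limma over 3 arrays per group; dotted lines mark a fold of 1.5. Xaf1, at 2.78, stands apart from the other 7 members, which lie between -0.27 and 0.56.

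Without regard to fold, 6 of the 8 members had an adjusted p under 0.05, as did 18.3% of all genes. In 5 of them values were higher in HBC, as in 6.93% of all genes, and in 1 they were lower, as in 11.4%. These 5 (Casp4, Casp12, Mlkl, Ripk3 and Xaf1) were also those whose HBC arrays all lay above the LBC arrays, as in 10.1% of all genes, and Casp1 alone had all of them below, as in 25.1%. The median log2 fold change was 0.29 over the 8 members and -0.07 over all genes tested. The members were chosen with earlier results of these data known, so these shares and medians are no test of an excess. Xaf1 was the most variable member among LBC arrays, with a coefficient of variation of 34.5%, against 8.26% in HBC. In the other 7 members it ran from 3.79% to 16.9% in HBC and from 2.35% to 11.8% in LBC. HBC replicate 2 was the highest HBC array in 7 of 8 members and HBC replicate 3 the lowest in 6 of 8. The share of all genes with this order was not counted, so nothing particular to the members is read from it. Over all genes, deviations from the HBC mean correlated at -0.74 between replicates 2 and 3. Between replicate 1 and these arrays the correlations were -0.25 and -0.46. Deviations from the mean of the same arrays cancel out in each gene, so such correlations are negative by construction. No opposition between arrays is read from them. The median intensity of replicate 2 was the lowest of all arrays.

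Genes with a pattern near that of Xaf1 were also strongly higher in HBC. Likeness was measured as the root mean square difference of log2(intensity + 16) over the 6 arrays, each gene centred on its own mean, among 13036 genes with a mean intensity above 100 in either group. The 5 nearest were Ifit3 (0.054), Phf11d (0.069), Serpinb1a (0.12), Dhx58 (0.15) and Oasl2 (0.15). Ifit3, an interferon-induced protein that binds other antiviral proteins, read 4642, 5532 and 4258 in HBC, against 850.3, 796 and 424 in LBC. Dhx58, a regulator of RNA sensing, read 1662, 1877 and 1447 in HBC, against 245, 231 and 162 in LBC. In all 5, as in Xaf1, LBC replicate 3 was the lowest LBC array. The pattern is mostly the difference between the groups, so genes that rose by a like amount are near by construction. LBC replicate 3 was among the arrays used to pick these genes, so its low values in them come partly by construction too.

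**Figure D3:**
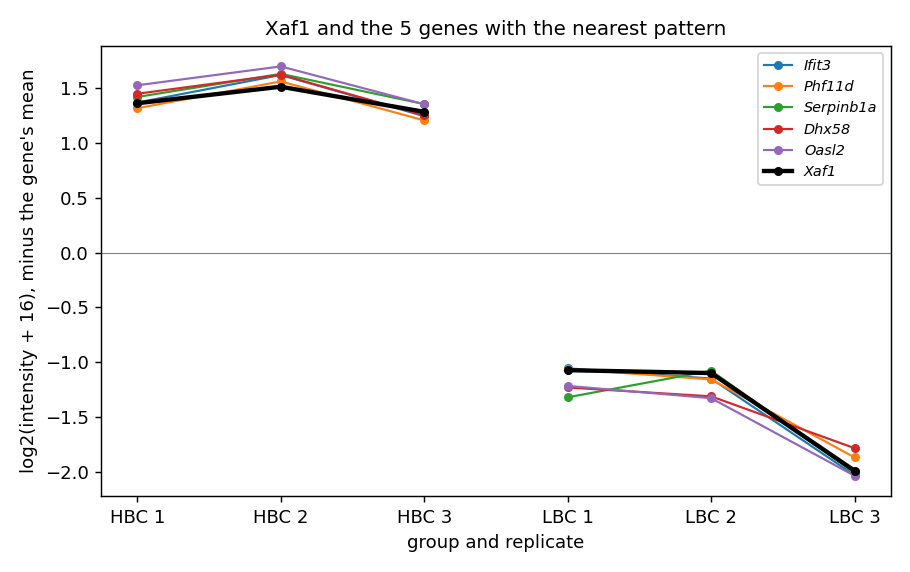
Log2(intensity + 16) minus each gene's mean over the 6 arrays, for Xaf1 (black) and the 5 genes with the nearest pattern, by group and replicate; lines only join arrays of a group. All 6 genes lie above 1 in HBC and below -1 in LBC, lowest in LBC replicate 3.

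Upstream of Ripk3, 2 nucleic acid sensors rose in HBC. Zbp1, a sensor of Z-form nucleic acids that engages Ripk3, read 487, 628 and 355 in HBC, against 45.0, 41.2 and 31.8 in LBC. Tlr3, the endosomal receptor for double-stranded RNA, read 1128, 1332 and 954 in HBC, against 238, 230.5 and 248 in LBC. Every HBC array was far above the LBC arrays for both genes, though the HBC arrays themselves were spread for Zbp1. Zbp1 rose by 3.17 on the log2 scale (SE 0.13, limma adjusted p = 1.5e-18) and Tlr3 by 2.17 (SE 0.098, limma adjusted p = 3.2e-17). In LBC Zbp1 was inside the olfactory receptor range, so the size of its rise is uncertain, and the test of the methods gave it an adjusted p of 0.061. These were the 2 genes called among 16 necroptosis genes measured, whose median log2 fold change was 0.07. Ripk1 was listed here and among the death receptor genes below but was not among the genes compared. Ticam1, the adaptor that joins Tlr3 to Ripk3, had a log2 fold change of 0.34 and Rnf31, a subunit of the linear ubiquitin ligase, one of 0.45. Cyld (-0.35) and Pgam5 (-0.34) had negative ones. All 4 had a limma adjusted p under 0.05, lowest for Rnf31 (1.9e-04), but lay under the fold threshold and were not called.

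Death ligands and receptors mostly did not pass the test. Of 16 measured, 1 was called higher, 1 lower and 14 were not called, with a median log2 fold change of -0.03. Tnfsf10, the ligand TRAIL, read 113, 123 and 102 in HBC, against 31.9, 31.1 and 19.3 in LBC, a log2 fold change of 1.58 (SE 0.10, limma adjusted p = 1.8e-13). Its LBC arrays were all within the olfactory receptor range, so the size of the rise is uncertain, and its HBC arrays were all above it. Its receptor Tnfrsf10b had a log2 fold change of 0.10, and Fas one of -0.0045. Tnfrsf21, a death receptor of the same family, read 149, 119 and 121 in HBC, against 199, 208 and 219 in LBC. It fell by 0.63 on the log2 scale, a call lost without HBC replicate 2 (-0.58) and under quantile (-0.57), cyclic loess (-0.54) and median (-0.56) scaling, and with 50 added in place of 16 (-0.53). Tnfrsf1a, a receptor of tumour necrosis factor, had a log2 fold change of 0.35 (limma adjusted p = 0.0048). It lay under the fold threshold and was not called.

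The executioner and mitochondrial arms of apoptosis showed few calls. None of 4 other caspases measured was called by limma, with 1 at an unadjusted p under 0.05 and 0 called by the test of the methods; Casp6, an executioner, had a log2 fold change of -0.23, Casp2 one of -0.09 and Casp14 one of -0.08, and the median was -0.09. None of 10 genes of caspase activation platforms was called by limma, with 2 at an unadjusted p under 0.05 and 0 by the test of the methods; Aifm1 (-0.24), Htra2 (-0.22) and Cradd (0.14) lay farthest from 0, and the median was -0.06. Of 19 Bcl-2 family genes, with a median of -0.03, 1 was called and 18 were not. Bnip3, a mitophagy receptor, was called higher at 1989 ± 85.5 in HBC and 1295 ± 183 in LBC (SD, n = 3 each; log2 fold change 0.62), but not without LBC replicate 1 (0.57) or LBC replicate 2 (0.56), nor by the test of the methods (adjusted p = 0.057 over all genes, against limma's 7.7e-06). Its relative Bnip3l had a log2 fold change of 0.27. Bcl2, the founding survival gene of the family, had a log2 fold change of -0.55 (limma adjusted p = 4.0e-05). It lay just under the fold threshold and was not called, but it was called lower without LBC replicate 1 (-0.62) or LBC replicate 2 (-0.59).

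Among inhibitors of apoptosis, 2 of 9 genes were called, both higher, and the median log2 fold change was 0.06. They were Naip6 and Naip2, which act as sensors of bacterial proteins for the inflammasome. Naip2 had a mean intensity of 152.7 ± 6.09 in HBC and 75.8 ± 4.43 in LBC, and Naip6 one of 55.8 ± 6.48 in HBC and 21.7 ± 1.11 in LBC (SD, n = 3 each). Their log2 fold changes were 0.88 and 0.93. The Naip genes are close copies of each other, so signal may be shared between them, and Naip6 in both groups and Naip2 in LBC lay within the olfactory receptor range, so the sizes of these rises are uncertain. With 50 added in place of 16, Naip6 (0.56) was not called. Birc5, which acts in cell division, had a log2 fold change of -0.30 (limma adjusted p = 0.034). Xiap, the partner of Xaf1, had one of 0.06 (limma adjusted p = 0.66), and neither was called.

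Of 26 inflammasome and pyroptosis genes measured, 3 were called higher, none lower and 23 were not called, with a median log2 fold change of -0.09. Serpinb1a, an inhibitor of neutrophil proteases, read 441, 513 and 421 in HBC, against 52.3, 64.9 and 26.3 in LBC (log2 fold change 2.94), where it lay within the olfactory receptor range, so the size of its rise is uncertain. Il1rn, the antagonist of the interleukin-1 receptor, read 545, 585 and 546 in HBC, against 157, 161 and 194 in LBC (log2 fold change 1.63). Txnip, which binds thioredoxin, had a log2 fold change of 0.80 and was not called by the test of the methods. The sensors and the adaptor were not called: Nlrp3 (-0.11), Nlrc4 (-0.16), Aim2 (-0.09) and Pycard (-0.11), and the first 3 lay within the olfactory receptor range in both groups. The cytokine gene Il1b (-0.12, limma adjusted p = 0.35) did not pass the test. Il18 (0.55, limma adjusted p = 9.0e-06) had all HBC arrays above the LBC arrays. It lay under the fold threshold and was not called. Without regard to fold, 6 genes of this list had a limma adjusted p under 0.05 and were higher in HBC, and 4 were lower. The 4 were P2rx7 (-0.47), Gsdmc2 (-0.44), Nek7 (-0.29) and Gsdma (-0.26), none of them called. Gsdmc2 and Gsdma lay within the olfactory receptor range in both groups. Over all 99 other cell death genes measured, 9 were called higher and 1 lower (10.1%, against 3.67% of all genes). Their median log2 fold change was -0.02, against -0.07 over all genes. The lists were chosen with earlier results of these data known, so the 2 shares are a description and no test of an excess.

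**Figure D4:**
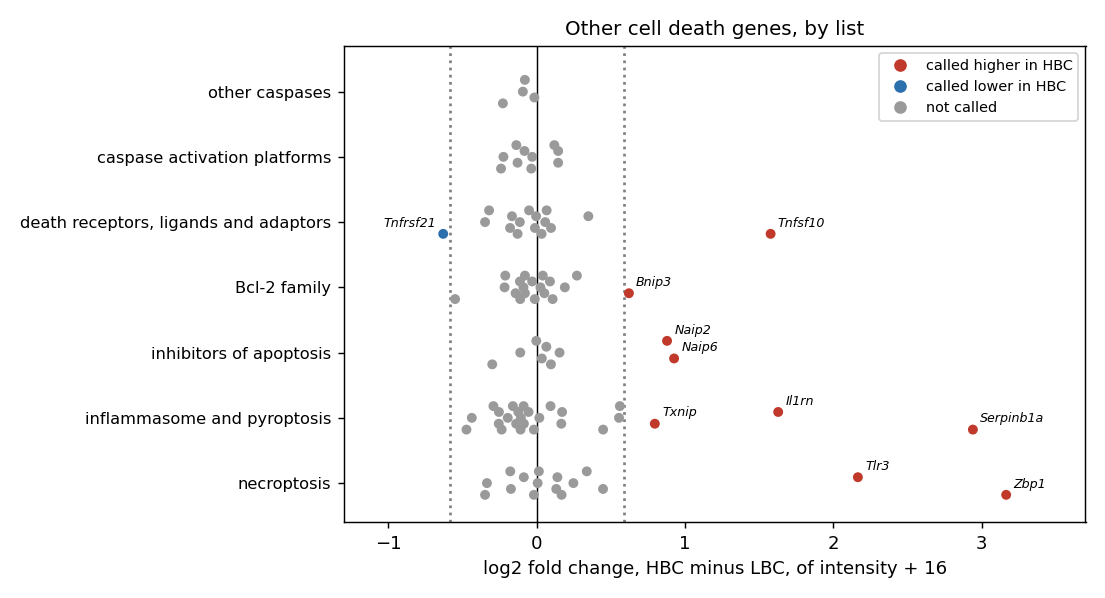
Difference of HBC minus LBC in log2(intensity + 16), with 3 arrays per group, for other cell death genes in 7 lists, with genes called higher in red, lower in blue and not called in grey; dotted lines mark a fold of 1.5, and vertical scatter within a list only separates points. The 9 genes called higher run from 0.62 (Bnip3) to 3.17 (Zbp1), and Tnfrsf21 is the 1 gene called lower.

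The arrays had median intensities from 121.9 to 132 in HBC and from 131 to 134.6 in LBC, and correlated across genes at r from 0.996 to 0.999 within a group and from 0.980 to 0.986 between HBC and LBC; genes are not independent replicates. Stromal markers matched the label, with 10 of 11 above the olfactory receptor range in both groups. Pdgfra, for example, read from 3808 to 4331 in HBC and from 2923 to 3472 in LBC. Of the 11, Col3a1 rose by 0.80 and Dcn fell by 0.78 on the log2 scale, and the part of this difference in the members' values was not tested. Since Casp1, Gsdmd and the inflammasome genes are used by macrophages, leukocyte markers were read too. None of 13 was called by limma, with 4 at an unadjusted p under 0.05 and 0 called by the test of the methods, and 8 of 13 lay above the olfactory receptor range in each group. Their summed intensity was 1183 to 1250.2 in HBC and 1317 to 1436 in LBC. The 8 were Cd14, Cd3e, Cd68, Csf1r, Fcer1g, Fcgr1, Itgam and Tyrobp, and the 5 within the range in both groups were Adgre1, Cd74, Lyz2, Mrc1 and Ptprc. Of these markers Cd14 alone had a limma adjusted p under 0.05 (8.9e-05). It was lower in HBC, with a log2 fold change of -0.48, and lay under the fold threshold. The part of leukocyte transcripts in the members' values was not tested. Of 5 endothelial and 4 mature adipocyte markers none was called by limma or by the test of the methods, with 2 and 0 at an unadjusted p under 0.05.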

How the data were processed

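RNA from 3 HBC and 3 LBC technical replicates at passage 20 was measured with 1 array each. For 35556 transcript clusters, the authors deposited linear intensities from Affymetrix Expression Console. Neither its version nor how probes were summarised and arrays normalized is stated in the sources used here. GEO's platform annotation, that of an older mouse gene array than the one named in the methods, matched the row identifiers and gave 1 symbol to 21789 clusters. Clusters with several symbols (1621) or none (12146) were left out, and for the 999 genes with several clusters the one with the highest mean intensity over all 6 arrays was used. All 19938 genes were tested on log2(intensity + 16) in R 4.3.3 by limma 3.58.1 (lmFit, then eBayes, 24.9 prior and 4 residual degrees of freedom), without a replicate block, and adjusted by the Benjamini-Hochberg method. The added 16 makes changes of dim genes smaller. Very small adjusted p-values rest on the variance shared between genes. Array signals of different genes are not comparable as levels, and the number of arrays limits the precision.

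Named genes were the 8 members, every called gene of 7 cell death lists, the 3 of each list that changed most, and the genes nearest to Xaf1; others named for their place in a pathway or on a chromosome, or as examples, were chosen after their values were seen. The members and lists were chosen with earlier results of these data known. Alternatives were 3 scalings, an added 1 or 50, filters at an intensity of 100, the t-test that the methods name, on intensities, other variance priors and cluster choices, other fold thresholds, a replicate block and leaving out each array. The fit was tested on simulated data. Gene names, neighbours and promoters came from RefSeq (GRCm38.p6), and no coordinates of array probes are given because their build is not named. Protein sequences were not used here, and 1 further motif is not reported here.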

Additional observations from a re-analysis of the deposited data

How the results depend on the processing

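Of the 8 members, 1 was called, and 2 (Xaf1 and Mlkl) after cyclic loess normalization or median centring. Without a fold threshold 6 members were called, with 27 other cell death genes in place of 10 and 3655 of all genes in place of 732. At a fold above 2, 5 other cell death genes and 280 of all genes were called. With the study's filter (a mean above 100 in both groups), 5 other cell death genes were called among 70 left. Among all 12331 genes left by this filter, 555 were called. Leaving out 1 array at a time gave 1 to 2 members, 9 to 11 other cell death genes and 710 to 784 of all genes. All genes split into 507 higher and 225 lower, against 595 and 161 after cyclic loess normalization and 599 and 167 after median centring. Signs turned in Gsdmd and Casp8, which were called in no alternative run: Gsdmd under quantile (0.044), cyclic loess (0.069) and median (0.052) scaling, with -0.092 to 0.017 when an array was left out, and Casp8, with -0.022 to 0.091 when an array was left out. Over the 29 genes whose alternatives were computed singly, 589 values kept their call or lack of one, 16 lost a call and 16 gained one. Most of the gains came without a fold threshold, and some of the losses at a fold above 2. In these 2 alternatives the threshold moved and the values did not. The cause of the other gains and losses was not tested. The adjusted p of Casp12 was not under 0.05 in 7 of 22 alternatives, and that of Casp4 in 2 of 22. With the replicate number as a block, 1 member, 10 other cell death genes and 732 of all genes were called, so the block changed no count, although the adjusted p of Casp1 was then 0.076 and that of Casp12 0.063. The numbers did not pair the arrays, since arrays with the same number deviated from their groups with correlations of -0.096, -0.24 and -0.50. Between HBC and LBC arrays of different numbers these correlations ran from -0.47 to 0.49. A block on the replicate number does not take up such a pattern, and its source was not tested. Dim signal limits Casp1 in both groups and the size of the rises of Zbp1, Serpinb1a, Tnfsf10, Naip2 and Naip6.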
